A study of Mus musculus with 2 samples.

Results

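Nkx2-2, Nkx6-1, Nkx6-2, Irx1, Irx2, Irx3, Irx5, Dbx1 and Dbx2 are homeobox genes of neural progenitors, named for the dorsoventral domains that they divide in the ventral neural tube. They were chosen by name and not by a rule on measured values, though earlier results of these data were known. Their Ensembl gene IDs were looked up in the gene tables, and all 9 were found in both libraries among 43346 Ensembl genes. The samples were midbrain of B6NCrl mouse embryos (a C57BL/6 substrain) at 15.5 days of development, with no treatment named in the labels. Total RNA was sequenced from 2 pools that mixed male and female embryos, 78 of them in replicate 1 and 62 in replicate 2. The pools form 1 group, so the data give levels and their spread between the pools, and no comparison of conditions. The labels name the tissue as a whole, so a level here is an average over progenitors, neurons and glia, and fewer cells of a type and less RNA per cell cannot be told apart.

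Homeobox genes encode transcription factors that bind DNA through a homeodomain. In the mouse and chick spinal cord, Sonic hedgehog from the floor plate induces Nkx2-2, Nkx6-1 and Nkx6-2 in ventral progenitors and represses Dbx1, Dbx2 and Irx3, which stay on further dorsally. Pairs of these factors repress each other where their domains meet, and the combination that a progenitor keeps sets which neuron type it makes. In the midbrain the Nkx genes mark parts of the basal plate and the Iroquois (Irx) genes have broader domains, and by the age studied here most midbrain neurons have been born.

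The family members resemble each other most in the homeobox, the stretch that encodes the homeodomain, so it is shown first for the most similar Irx pairs, as coding sequence from the mouse GENCODE annotation on GRCm38, with capitals at the bases that differ within a pair. The Irx homeoboxes span 189 nt, since Iroquois factors carry a longer homeodomain of the TALE class, and each lies within exon 2. Irx1 (minus strand, chr13:71959995-71960183) is shown against Irx3 (minus strand, chr8:91800499-91800687).
Irx1: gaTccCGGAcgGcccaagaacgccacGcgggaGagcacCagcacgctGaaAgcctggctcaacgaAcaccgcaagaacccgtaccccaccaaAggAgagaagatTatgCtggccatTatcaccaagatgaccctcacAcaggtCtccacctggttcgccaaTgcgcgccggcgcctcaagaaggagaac
Irx3: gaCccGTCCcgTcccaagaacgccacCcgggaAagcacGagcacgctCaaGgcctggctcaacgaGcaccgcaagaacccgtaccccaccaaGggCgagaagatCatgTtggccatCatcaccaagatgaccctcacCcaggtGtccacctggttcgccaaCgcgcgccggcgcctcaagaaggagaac
Irx2 (plus strand, chr13:72630661-72630849) is shown against Irx5 (plus strand, chr8:92359624-92359812).
Irx2: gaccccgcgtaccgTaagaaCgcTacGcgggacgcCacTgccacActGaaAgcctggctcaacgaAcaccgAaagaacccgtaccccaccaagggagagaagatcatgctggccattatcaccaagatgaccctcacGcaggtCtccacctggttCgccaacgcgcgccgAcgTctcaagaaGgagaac
Irx5: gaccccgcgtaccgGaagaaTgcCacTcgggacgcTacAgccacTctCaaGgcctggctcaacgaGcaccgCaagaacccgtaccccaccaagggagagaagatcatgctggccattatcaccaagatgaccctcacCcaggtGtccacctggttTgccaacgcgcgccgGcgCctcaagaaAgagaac
Irx1 and Irx3 differed at 20 of 189 bases and 1 of 63 homeodomain residues, and Irx2 and Irx5 at 17 bases, every one a synonymous change at the end of a codon, so that their homeodomains were identical. Each Irx gene was thus closer to a gene of the other chromosome than to its own neighbour: Irx1 against Irx2, and Irx3 against Irx5, differed at 6 of 63 residues each. Dbx1 and Dbx2 differed at 41 of 180 bases and 9 of 60 residues, whereas Nkx2-2 differed from Nkx6-2 at 34 of 60 residues.

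The likeness bears on how well reads could be assigned to each gene. Among the 6 Irx pairs, Dbx1 with Dbx2 and Nkx2-2 with Nkx6-2, the longest run of bases that the transcripts of a pair shared was 65 nt, between Irx2 and Irx5. No 100 nt window of any member's transcripts occurred in another member. The tables also give a posterior SD, the uncertainty of a count that comes from reads fitting several features, and it was 0 in both libraries for Nkx6-1, Irx1, Irx2, Irx5, Dbx1 and Dbx2. It was at most 0.54 counts for Nkx2-2 and 0.41 counts for Irx3, and it was highest for Nkx6-2, at 3.79 counts in replicate 1 and 2.68 counts in replicate 2.

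All 9 genes were expressed, which here means at least 1 TPM (the abundance unit of the tables, a level scaled by transcript length) in both libraries. That level was met by 35.4% of all Ensembl genes. The expressed genes had a median of 17.1 TPM in replicate 1 and 17.0 TPM in replicate 2, and 4 members, Irx2, Irx5, Dbx1 and Irx3, lay above it in both. Together the 9 genes held 142 TPM in replicate 1 and 116 TPM in replicate 2, of which the 4 Irx genes took 70.3% and 70.4%. Intervals given below are exact 95% Poisson intervals on the counts and cover counting error only. Libraries held 38966386 and 40419493 expected counts (estimated reads, with ambiguous ones split), and at that depth a count of 0 would have allowed up to 0.0823 TPM for Nkx2-2 in replicate 1, the highest such limit of any member.

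**Figure D1:**
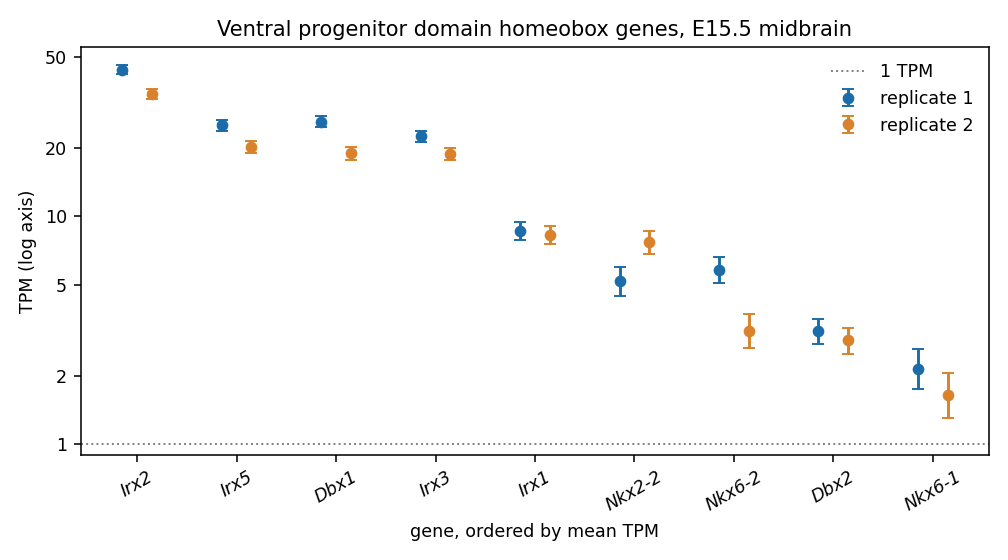
Level of each gene in TPM on a log axis, ordered by the mean of both libraries, with replicate 1 to the left of replicate 2. Bars are exact 95% Poisson intervals of the counts and the dotted line is 1 TPM; all 9 genes lie above it, and levels run from 44.0 TPM for Irx2 to 1.64 TPM for Nkx6-1.

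The ventrally induced factors were the lowest group, with 13.1 TPM summed over the 3 Nkx genes in replicate 1 and 12.5 TPM in replicate 2. Nkx2-2, the repressor that defines the domain beside the floor plate and later acts in oligodendrocyte precursors, stood at 5.19 TPM (4.48 to 5.98) from 189 counts in replicate 1 and 7.69 TPM (6.83 to 8.62) from 292 counts in replicate 2. Its counting intervals did not overlap, and it was the only member lower in replicate 1. Nkx6-2, a repressor of progenitors that also acts in oligodendrocytes, stood at 5.81 TPM (5.08 to 6.61) from 231 counts in replicate 1 and 3.15 TPM (2.64 to 3.72) from 137 counts in replicate 2. It had the widest relative spread of the 9 genes, with a mean of 4.48 ± 1.88 TPM (SD, n = 2). Its TPM carries a difference in estimated transcript length, 1803 nt in replicate 1 and 1907 nt in replicate 2, which the counts do not. Nkx6-1, which broadly marks ventral progenitors and some motor nuclei, was the lowest of the 9, at 2.14 TPM from 100 counts in replicate 1 and 1.64 TPM from 79 counts in replicate 2, and its intervals overlapped.

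Within each library Nkx6-1 was lower than its paralog Nkx6-2. The ratio Nkx6-1 over Nkx6-2 was 0.368 (0.289 to 0.468) in replicate 1 and 0.521 (0.391 to 0.694) in replicate 2, a mean log2 ratio of -1.19 ± 0.35 (SD, n = 2). Nkx2-2 exceeded Nkx6-1 by a log2 ratio of 1.28 in replicate 1 and 2.23 in replicate 2. With 2 libraries an exact two-sided sign-flip test of any such ratio cannot give a p below 0.5, so no p is given for them.

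Dbx1, which marks the progenitors of the most dorsal of the ventral domains in the spinal cord, was among the higher members. It stood at 26.0 TPM (24.6 to 27.5) from 1210 counts in replicate 1 and 18.9 TPM (17.7 to 20.1) from 907 counts in replicate 2. Dbx2, whose spinal cord domain extends beyond that of Dbx1 on both sides, stood at 3.13 TPM from 246 counts in replicate 1 and 2.85 TPM from 231 counts in replicate 2. Dbx1 therefore differed between the pools beyond its counting intervals and Dbx2 did not. The log2 ratio Dbx2 over Dbx1 was -3.05 in replicate 1 and -2.73 in replicate 2, with a mean of -2.89 ± 0.23 (SD, n = 2).

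Irx2 was the highest of the 9 genes. It stood at 44.0 TPM (42.0 to 46.0) from 1906 counts in replicate 1 and 34.4 TPM (32.8 to 36.1) from 1636 counts in replicate 2, which put it above 73.5% and 67.9% of expressed genes. The TPM of Irx2 also carries a difference in its estimated transcript length, 1955 nt in replicate 1 and 2069 nt in replicate 2, which the counts do not. Irx1, its neighbour on chromosome 13 and a gene with a conserved early role in neural patterning, stood at 8.64 TPM from 459 counts in replicate 1 and 8.26 TPM from 453 counts in replicate 2. Irx1 had the smallest relative spread of the 9 genes, with a mean of 8.45 ± 0.27 TPM (SD, n = 2).

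The chromosome 8 neighbours Irx3 and Irx5 had nearly equal levels. Irx3, which sets the dorsal limit of motor neuron progenitors against Olig2 in the spinal cord, stood at 22.4 TPM (21.2 to 23.7) from 1309 counts in replicate 1 and 18.8 TPM (17.7 to 19.9) from 1131 counts in replicate 2. Irx5, which shares many expression domains with Irx3 in mouse embryos, stood at 25.0 TPM (23.7 to 26.4) from 1347 counts in replicate 1 and 20.1 TPM (18.9 to 21.3) from 1116 counts in replicate 2. Both genes were higher in replicate 1, and within a library they lay close together.

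Inside the clusters the balance differed. The log2 ratio Irx1 over Irx2 was -2.35 in replicate 1 and -2.06 in replicate 2 (mean -2.20 ± 0.20, SD, n = 2), whereas Irx3 over Irx5 was -0.16 and -0.10 (mean -0.13 ± 0.04). The sums of the members in each cluster, without Irx4 and Irx6, were also close. The log2 ratio of Irx3 and Irx5 over Irx1 and Irx2 was -0.14 ± 0.009 (SD, n = 2). The direction of the last 2 ratios depends on the gene models: with counts divided by the exon lengths of a later annotation, Irx3 over Irx5 became 0.17 and the ratio of these sums 0.22, while Irx1 over Irx2 stayed negative at -1.63.

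**Figure D2:**
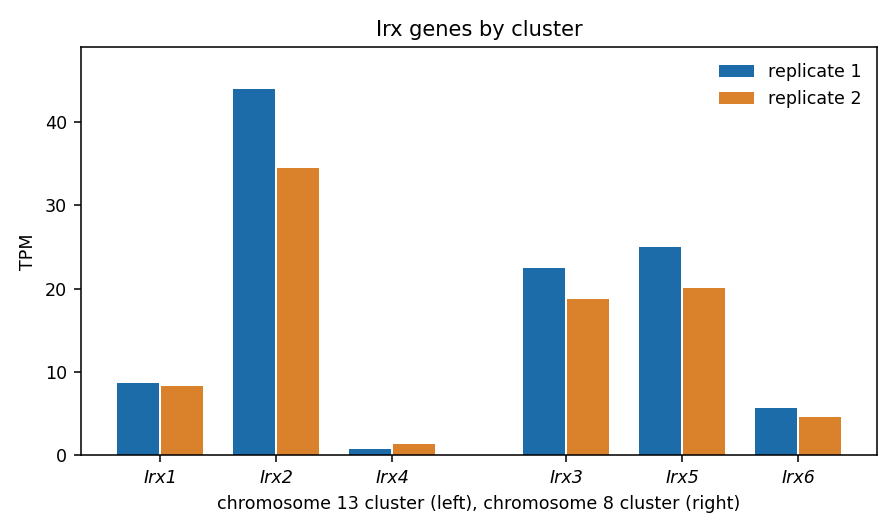
TPM of the Irx genes in chromosomal order, the chromosome 13 cluster on the left and the chromosome 8 cluster on the right, with replicate 1 left of replicate 2. Irx2 leads its cluster at 44.0 and 34.4 TPM, Irx3 and Irx5 lie between 18.8 and 25.0 TPM, and Irx4 and Irx6 are the lowest of their clusters.

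In the order of means, neighbours whose ranges over the libraries overlapped were Irx5 and Dbx1, Dbx1 and Irx3, and Nkx2-2 and Nkx6-2. Irx5 and Dbx1 exchanged places between the libraries, as did Nkx2-2 and Nkx6-2. The other steps of the order held in both libraries, but the step from Dbx1 to Irx3 was 0.01 on the log2 scale in replicate 2, and those from Irx1 to Nkx2-2 and from Nkx6-2 to Dbx2 were 0.10 and 0.14.

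In mm10 the 2 Irx clusters place their genes far apart. The starts of Irx1 (chr13:71957921-71963723, minus strand) and Irx2 (chr13:72628820-72634198, plus strand) were 665 kb apart, and those of Irx3 (chr8:91798525-91802067, minus strand) and Irx5 (chr8:92357625-92376286, plus strand) were 556 kb apart. Each cluster also holds a gene that is not among the 9. Irx4, 632 kb beyond Irx2, stood at 0.79 TPM in replicate 1 and 1.41 TPM in replicate 2, and Irx6, 317 kb beyond Irx5, stood at 5.67 and 4.55 TPM. Irx4 and Irx6 were each the lowest of their cluster in both libraries.

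The remaining members lie on 4 other chromosomes. Nkx2-2 lies at chr2:147177546-147194243, Nkx6-1 at chr5:101658139-101664996, Nkx6-2 at chr7:139579376-139582797, Dbx1 at chr7:49631499-49636849 and Dbx2 at chr15:95623563-95655960, all on the minus strand. Nkx6-2 and Dbx1 share a chromosome without being neighbours.

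Several members have a gene on the opposite strand, and the use of read strand is not given in the sources used here, so reads of such a pair cannot be told apart where the exons overlap. Inpp5a, which encodes an inositol phosphate phosphatase, overlaps the last 277 nt of Nkx6-2 and stood at 14.1 TPM in replicate 1 and 15.2 TPM in replicate 2, above Nkx6-2 in both libraries. The posterior SD of Inpp5a was the same as that of Nkx6-2, 3.79 counts in replicate 1 and 2.68 counts in replicate 2, and 8.24% of the 100 nt windows of Nkx6-2 also occurred in Inpp5a on the opposite strand. Irx3os overlaps Irx3 over 1653 nt and stood at 1.61 and 1.69 TPM, with 0.905% of the windows of Irx3 shared. Nkx2-2os overlaps Nkx2-2 over 10161 nt and was listed at 0 TPM in replicate 1 and 0.04 TPM in replicate 2, with 6.36% of the windows of Nkx2-2 shared. Another antisense gene, 6430503K07Rik, lies within Nkx2-2 and had 5 counts in replicate 1 and 3 counts in replicate 2. The other 6 members shared no window with another gene.

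Irx5 and Irx2 each have a noncoding neighbour that starts close by on the other strand. Crnde, a long noncoding RNA gene, starts 1505 nt from Irx5 and stood at 31.0 TPM in replicate 1 and 31.4 TPM in replicate 2, above Irx5 in both libraries. Crnde did not follow the difference of Irx5 between the pools: its log2 count ratio was -0.01, against 0.32 for Irx5. Gm20554 starts 256 nt from Irx2 and had 14 counts in replicate 1 and 12 counts in replicate 2, against 1906 and 1636 counts of Irx2. The 250 nt upstream of Irx2 (chr13:72628570-72628819, plus strand, RefSeq on GRCm38.p6) are shown because they fill nearly all of the gap between these divergent starts, with capitals at the motif matches.
Irx2 upstream: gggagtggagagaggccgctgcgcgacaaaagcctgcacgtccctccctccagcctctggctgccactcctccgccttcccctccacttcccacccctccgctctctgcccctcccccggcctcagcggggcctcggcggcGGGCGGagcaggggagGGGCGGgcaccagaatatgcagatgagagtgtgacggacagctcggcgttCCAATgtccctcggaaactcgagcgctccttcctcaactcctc
The window had a GC content of 68.4% and 19 CpG dinucleotides. Of 4 motifs searched on both strands it held 1 CCAAT and 2 GGGCGG and neither TATAAA nor TAATTA, none overlapping another. Among 32851 promoter windows of the same length, 33.8% held CCAAT, 32.7% GGGCGG, 12.4% TATAAA and 4.84% TAATTA. These matches describe the letters of the window and carry no measurement of binding.

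The transcript tables list 18 transcripts for the 9 genes, with 1 each for Nkx6-1, Irx1, Irx5, Dbx1 and Dbx2. For Irx3, the protein-coding Irx3-202 took 95.8% of the gene's abundance in replicate 1 and 97.5% in replicate 2. For Nkx2-2, the main coding transcript Nkx2-2-201 took 71.4% and 70.4%, and the other 3 transcripts took between 6.25% and 12.1% each. Nkx2-2-202 has 1 exon base of its own and its share rests on 3.54 and 4.76 estimated counts, so its percentages are those of a short and nearly uncounted transcript.

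Irx2 had the widest choice, with 5 transcripts. Its coding transcript Irx2-201 took 65.6% in replicate 1 and 70.3% in replicate 2 (67.9% ± 3.34, SD, n = 2). Irx2-205, a short coding fragment without any exon base of its own, took 20.7% and 13.8%, and Irx2-202, annotated as a retained intron, took 11.8% and 15.9%. The remaining Irx2-203 and Irx2-204 took at most 1.04%.

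Nkx6-2 was the one gene whose leading transcript is not annotated as coding. Nkx6-2-201, annotated as a target of nonsense-mediated decay, took 82.9% in replicate 1 and 100% in replicate 2, and the protein-coding Nkx6-2-202 took 17.1% in replicate 1 and was listed at 0 in replicate 2. All exon bases of Nkx6-2-202 are also part of Nkx6-2-201, which has 608 exon bases of its own, so the split rests on reads that fit both, and the posterior SD of the coding transcript was 18.2 counts beside 27.9 counts estimated in replicate 1. By posterior means the leading share averaged 85.0%. The overlap with Inpp5a lies at the 3′ end of Nkx6-2-201, and its part in the split was not tested.

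**Figure D3:**
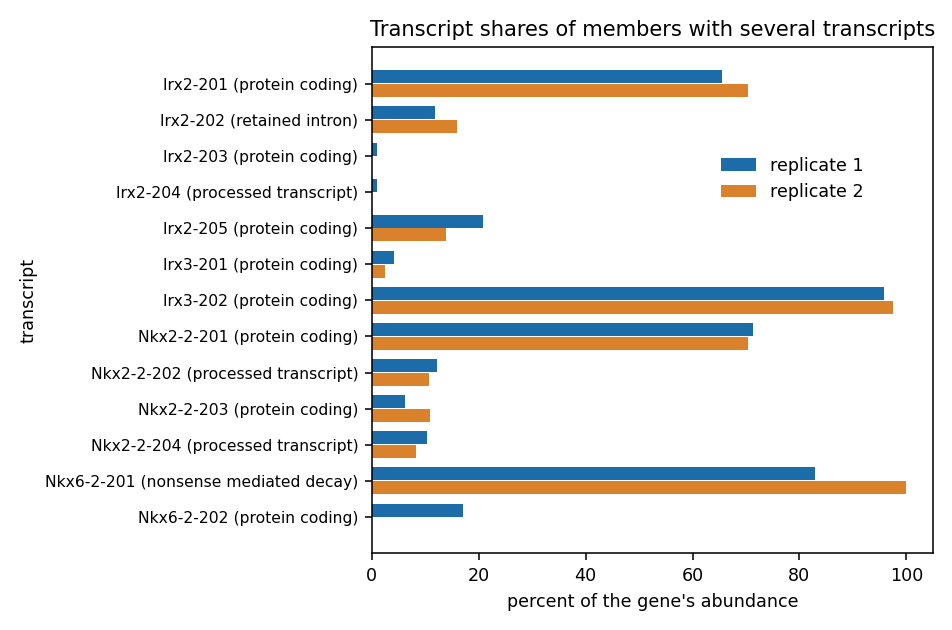
Percent of the gene's abundance taken by each transcript of the 4 genes with more than 1, with replicate 1 above replicate 2 and the annotated type in brackets. Irx3-202 takes over 95% in both libraries, Irx2 and Nkx2-2 are led by a coding transcript near 70%, and Nkx6-2 is led by the transcript annotated for nonsense-mediated decay.

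The pools were then compared with each other, as a measure of how far the levels vary between samples of 1 tissue. Each gene's counts were tested with a two-sided exact binomial test, adjusted by the Benjamini-Hochberg method over the 18269 genes with a mean of at least 10 counts, and a gene was called at an adjusted p under 0.05 and a difference of at least 2-fold. The rule called 298 genes, 1.63% of those tested, and 0 of the 9 members. At an unadjusted p under 0.05 the exact binomial test picked 6 members and 30.5% of all genes tested, and edgeR's negative binomial test picked 4 members and 7.04% of all genes tested. Such a p compares these libraries and not conditions, since the binomial test allows for counting noise alone.

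By the adjusted p alone, without the 2-fold limit, 6 members differed. Irx2, Irx3, Irx5, Dbx1 and Nkx6-2 were higher in replicate 1, where 10.1% of all genes tested were, and Nkx2-2 was higher in replicate 2, where 9.18% were. The genes with the most counts have the narrowest intervals, and 4 of the 6 had at least 907 counts in both libraries. With edgeR's negative binomial test, which takes 1 common spread from all genes, 1.30% of genes and 1 member, Nkx6-2, passed the adjusted p.

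Nkx6-2 had the largest ratio, 1.74 (1.40 to 2.17) in counts of replicate 1 over replicate 2, with an adjusted p of 5.8e-06 in the exact binomial test and 0.011 in the negative binomial test. For Nkx2-2 the ratio was 0.669 (0.554 to 0.806), with adjusted p-values of 0.00024 in the exact binomial test and 0.13 in the negative binomial test. For Dbx1 it was 1.38 (1.26 to 1.504), with 1.5e-11 in the exact binomial test and 0.11 in the negative binomial test. Irx2, Irx3 and Irx5 had ratios of 1.20, 1.20 and 1.25, and Irx1, Dbx2 and Nkx6-1 had ratios of 1.05, 1.10 and 1.31 whose intervals included 1. Nkx6-2 and Nkx2-2 thus lay on opposite sides of 1 with intervals that did not overlap.

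**Figure D4:**
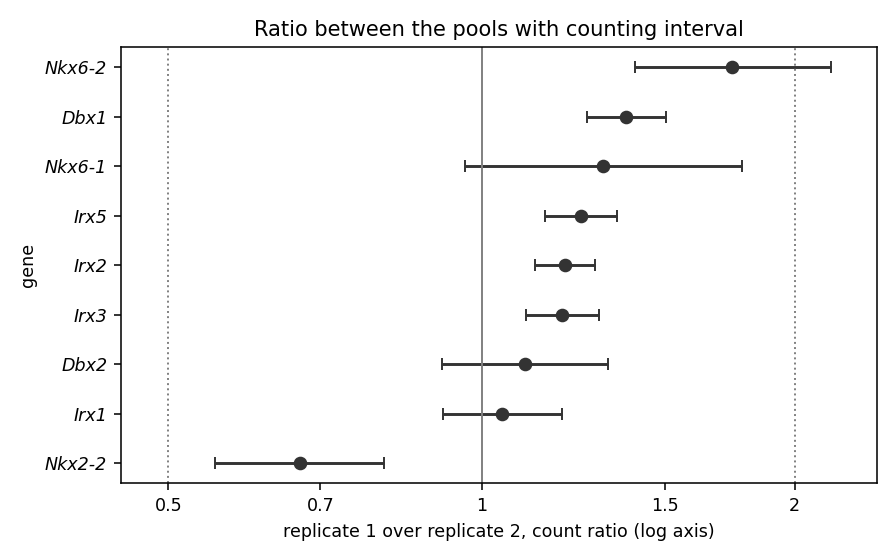
Count ratio of replicate 1 over replicate 2 for each gene on a log axis, with exact 95% conditional intervals; the solid line is 1 and the dotted lines are a 2-fold difference either way. Of the 9 ratios, 8 lie above 1 and none reaches 2-fold, with Nkx6-2 highest at 1.74 and Nkx2-2 lowest at 0.669.

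Of the 9 genes, 8 were higher in replicate 1, against 50.8% of all genes tested. Their median log2 count ratio of replicate 1 over replicate 2 was 0.27, against 0.00 over all genes tested, and the SD of the log2 TPM ratio over expressed genes was 0.25. With library sizes taken from the spike-in RNA the all-gene median moved to 0.09 and the members' median to 0.35. By that scaling 8 of the 9 members were again higher in replicate 1, but so were 13148 of the 18269 genes tested. With that scaling 5065 genes passed the adjusted p as higher in replicate 1 and 567 as higher in replicate 2, against 1846 and 1678 with TMM scaling.

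Markers of cell classes differed between the pools as well by the exact binomial test. None of the progenitor or neuron markers passed the adjusted p of edgeR's negative binomial test. All 8 progenitor markers were higher in replicate 1, 5 of them past the adjusted p, with a median log2 ratio of 0.17 and a summed level of 1557 TPM in replicate 1 and 1474 TPM in replicate 2. Among the 3 highest, Hes5, a Notch target of progenitors, stood at 122 TPM in replicate 1 and 94.7 TPM in replicate 2, beside 989 and 963 TPM for Fabp7 and 344 and 326 TPM for Vim. Of 8 neuron markers, 2 were higher in replicate 1 and 6 were lower, with a median log2 ratio of -0.08 that became 0.01 with spike-in scaling. Their 3 highest were Tubb3, a neuronal tubulin, at 1782 and 1731 TPM, Gap43, a growth cone protein, at 1209 and 1268 TPM, and Stmn2 at 936 and 961 TPM. The part of these markers in the differences of the Irx, Dbx and Nkx6 genes was not tested.

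**Figure D5:**
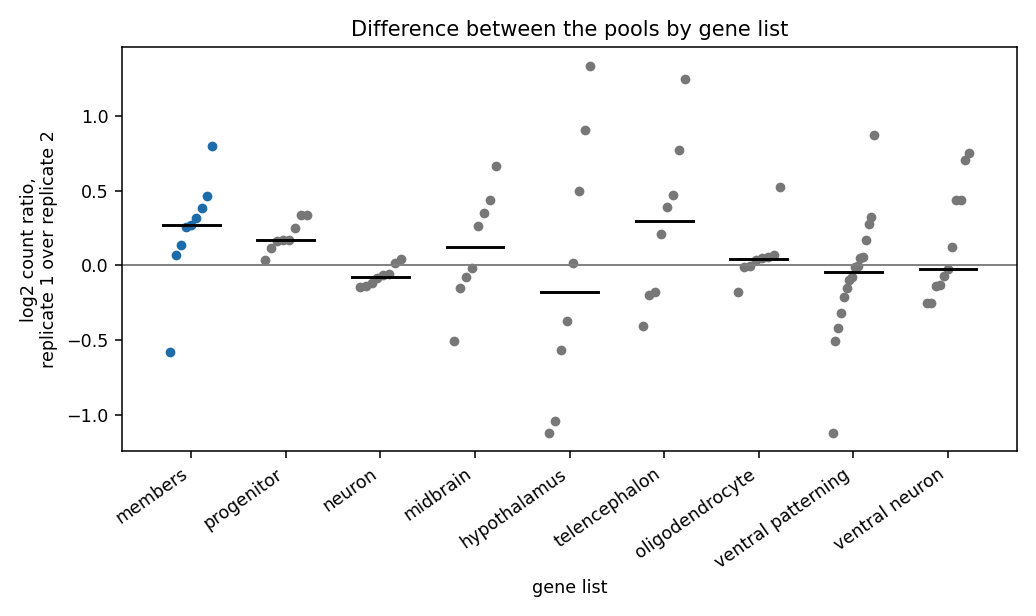
Log2 count ratio of replicate 1 over replicate 2 for the 9 homeobox genes (blue) and for the progenitor, neuron, midbrain, hypothalamus, telencephalon, oligodendrocyte, ventral patterning and ventral neuron lists, 1 point for each tested gene, with a bar at each median. The homeobox genes have a median of 0.27, the progenitor markers lie above 0 throughout, and the hypothalamic markers run from -1.12 to 1.33.

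Markers of brain regions were read to check the tissue label, without a test of which cells their RNA came from. Of 8 midbrain markers, 7 were expressed, led by Meis2 at 71.7 TPM in replicate 1 and 61.1 TPM in replicate 2, Otx2, which forebrain and midbrain need, at 66.4 and 66.1 TPM, and Pax3 at 11.9 and 9.25 TPM. Their sums were 167 TPM in replicate 1 and 152 TPM in replicate 2. By the scaled count ratio, 4 of the 8 were higher in each replicate. By edgeR's negative binomial test none of the 8 passed the adjusted p. By the exact binomial test the 4 that were higher in replicate 1 passed it, and the 4 that were higher in replicate 2 did not. Otx2 was among the latter with a log2 count ratio of only -0.02, though its TPM was slightly higher in replicate 1. Of 8 hindbrain markers, 1 was expressed, Gbx2 at 15.2 and 19.6 TPM, which the thalamus also uses. Hoxb1 and Hoxb4 were at 0 in both libraries, and Egr2 and Hoxb2, the next highest, were under 1 TPM. Hox genes of the hindbrain were thus near 0, with summed hindbrain markers of 15.9 TPM in replicate 1 and 20.6 TPM in replicate 2.

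Hypothalamic markers were present too, 5 of 8 at 1 TPM or more in both libraries, and 6 of the 8 passed the adjusted p, 2 higher in replicate 1 and 4 in replicate 2. Avp, the gene of the hormone vasopressin, led at 44.8 TPM in replicate 1 and 66.4 TPM in replicate 2, followed by Six3 at 25.0 and 24.6 TPM and Nkx2-1 at 5.14 and 6.55 TPM. Of the 8, 3 were called: Otp at 1.91 and 3.86 TPM and Sim1 at 0.84 and 1.84 TPM, lower in replicate 1, and Six6 at 1.23 and 0.49 TPM, higher in replicate 1. They summed to 87.4 TPM in replicate 1 and to 109 TPM in replicate 2, and their part in the difference of Nkx2-2 was not tested. Avp carried that difference: the other 7 summed to 42.7 TPM in replicate 1 and 42.1 TPM in replicate 2, and of the 8 markers 4 were higher in each replicate. The 8 telencephalic markers were all expressed, led by Dlx1 at 45.7 and 35.9 TPM, Neurod6 at 18.4 and 14.1 TPM and Emx2 at 12.8 and 14.9 TPM. This list summed to 96.4 TPM in replicate 1 and 80.9 TPM in replicate 2, and 1 was called, Emx1 at 2.64 and 1.14 TPM. By the adjusted p of the exact binomial test alone, 5 were higher in replicate 1 and 1 in replicate 2. The median log2 ratio of the list was 0.30, against 0.27 for the 9 homeobox genes, and its part in their differences was not tested.

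Nkx2-2, Nkx6-2 and Nkx6-1 also take part in making oligodendrocytes, so the lineage's markers were read beside them. Of 8, 7 were expressed, led by Olig1 at 67.0 TPM in replicate 1 and 64.5 TPM in replicate 2, the myelin gene Mbp at 16.1 and 15.5 TPM, and Olig2 at 9.12 and 8.82 TPM. None of the 8 passed the adjusted p of the exact binomial test or of edgeR's negative binomial test, and their sums were 116 TPM in replicate 1 and 114 TPM in replicate 2. Between the same pools Nkx2-2 and Nkx6-2 differed in opposite directions, and the part of this lineage in their differences was not tested.

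Among 16 genes of ventral patterning, 12 were expressed. Among the highest were Pax6 at 19.1 TPM in replicate 1 and 18.4 TPM in replicate 2 and the hedgehog receptor and target gene Ptch1 at 9.39 and 8.70 TPM. By the adjusted p alone 2 were higher in replicate 1 and 2 in replicate 2, the called gene was Sim1, and the median log2 ratio was -0.04, against 0.27 for the 9 homeobox genes. Summed, they stood at 85.7 TPM in replicate 1 and 86.5 TPM in replicate 2.

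Other members of the same families were mostly lower. Of 9 listed, Irx6, Nkx2-1 and Nkx2-4 were expressed, and Nkx2-4, which marks the hypothalamic floor, stood at 3.16 TPM in replicate 1 and 1.94 TPM in replicate 2. Irx4 reached 1 TPM in replicate 2 alone. Nkx2-3 stood at 0.81 and 0.33 TPM, Nkx2-9 at 0.18 and 0.07 TPM and Nkx6-3 at 0.02 and 0.10 TPM, and Nkx2-6 was at 0 in both. All 6 relatives with enough counts to test passed the adjusted p of the exact binomial test alone, 4 higher in replicate 1 and 2 in replicate 2. Of all genes tested, 10.1% passed as higher in replicate 1 and 9.18% as higher in replicate 2. By edgeR's negative binomial test 1 of the 6 passed, Nkx2-5.

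Nkx2-3 and Nkx2-5 were the relatives called at 2-fold. Nkx2-3 had 38 counts in replicate 1 and 16 counts in replicate 2, with an adjusted p of 0.20 in the negative binomial test. Nkx2-5, a regulator of heart development, stood at 0.75 TPM from 25 counts in replicate 1 and 0.09 TPM from 3 counts in replicate 2, with an adjusted p of 0.00021 in the exact binomial test. Genes of other organs differed strongly between the pools at low levels, with 5 of 6 tested called. The cardiac genes Tnnt2 and Myh6 stood at 10.7 and 0.62 TPM in replicate 1 and at 0.56 and 0.20 TPM in replicate 2, beside Nppa at 5.29 TPM in replicate 1 and 2.94 TPM in replicate 2. Alb, the liver's albumin gene, stood at 4.60 and 0.09 TPM, whereas the epithelial keratins Krt14 and Krt5 were higher in replicate 2, at 0.21 and 5.02 TPM and at 0.08 and 4.72 TPM. Ins2 and Pdx1 were at 0 in replicate 1. The part of such tissue in the levels of Nkx2-5 or of the 9 genes was not tested.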

How the data were processed

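Reads were quantified on mm10 with GENCODE M4, per the notes the authors deposited. Which aligner, counter and strand setting were used is not given in the sources used here. Per the labels, 10 ng of RNA longer than 200 nt with spike-ins entered each library. Per the file headers, the authors deposited expected counts, TPM and FPKM for each gene and transcript, a score for read-assignment uncertainty (the posterior SD), and the percent of its gene that each transcript takes. Depth was 38966386 and 40419493 expected counts, of which spike-ins took 2.30% and 2.42%.

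Expected counts were rounded and scaled by edgeR 4.0.16 TMM. Counts were tested per gene with a two-sided exact binomial test (scipy 1.17.1) over the 18269 genes that averaged 10 counts or more; log2 count ratios had 0.5 added to each count. The alternatives were DESeq2 1.42.0 size factors, total or spike-in scaling, other filters and limits, and edgeR's exact negative binomial test with the common dispersion of an intercept-only fit (biological coefficient of variation 0.0651). The exact binomial calls and the ratio intervals were tested on simulated libraries with counting noise alone. That simulation did not check the negative binomial test. Symbols were matched for 42462 of 43346 IDs. Coordinates came from GENCODE M21 on the same build and the upstream sequence from RefSeq.

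Members and lists were chosen with earlier results of these data known. Named were all 9 members, genes overlapping one or starting within 10 kb, the listed relatives, and the 3 highest and any called genes of the other lists, except for 1 gene that is not reported here. Gm40999 and Gm36380, which start near Irx1 and Irx3 in M21, were not analysed here. The labels do not tie embryos to litters. With 1 library per pool, p-values compare these pools only, and the exact binomial test sets their difference against counting noise alone.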

Additional observations from a re-analysis of the deposited data

How the results depend on the processing

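Of 51 alternatives for the main results, 39 left them within the spread between libraries or within 1.5 times the count. The 298 genes called became 67 with a mean of 50 or more counts, 3524 by the adjusted p alone, 526 with a 1.5-fold limit and 159 with the negative binomial test and 2-fold. The 0 members called became 6 by the adjusted p alone and 1 with a 1.5-fold limit. Counts divided by M21 exon length gave log2 ratios of -1.72 for Nkx6-1 over Nkx6-2 and -1.63 for Irx1 over Irx2, and turned the direction of Irx3 over Irx5 (0.17) and of Irx3 and Irx5 over Irx1 and Irx2 (0.22); this alternative uses other gene lengths, with Nkx6-1 at 3138 nt against 2100 nt in the tables. Posterior mean TPM gave -0.16 for Irx3 and Irx5 over Irx1 and Irx2, and adding 1 to TPM gave -2.54 for Dbx2 over Dbx1. Leaving out either library kept the direction of every ratio. Of 57 alternatives for single levels and transcript shares, 47 stayed within the spread between libraries, and 8 of the 10 others were FPKM, which is a different scale. Both tallies include leaving out 1 library, which by arithmetic moves a mean of 2 libraries by less than their SD. Those alternatives could not leave the spread, so they are no check of it. Nor could a lower TPM limit or the use of 1 library lower the count of members expressed. No paired analysis was possible because the 2 libraries belong to 1 group. With 2 libraries the SDs are rough, and Nkx6-1, at 79 to 100 counts, has the widest counting intervals of the 9 genes relative to its level.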

Other observations

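The lists also covered neurons that descend from ventral and neighbouring domains. Of 15 genes, 9 were expressed in both libraries, and their levels ran well above those of the progenitor factors. Gata3, which marks GABAergic neurons of the midbrain, stood at 81.4 TPM in replicate 1 and 94.5 TPM in replicate 2. Sox14 stood at 61.0 TPM in replicate 1 and 73.6 TPM in replicate 2, and Pou4f1, which marks the red nucleus and tectal neurons, at 57.8 and 53.6 TPM. By the adjusted p of the exact binomial test alone 4 were higher in replicate 1 and 2, Gata3 and Sox14, in replicate 2, and by edgeR's negative binomial test none of the 11 tested passed. Together the 15 genes stood at 259 TPM in replicate 1 and 276 TPM in replicate 2, while the 9 homeobox genes stood at 142 and 116 TPM. Mnx1, Lhx3 and Foxd3, which mark other neuron or neural crest types, were at most 0.11 TPM in either library.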
